A study of Rattus norvegicus with 6 samples.

Results

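Glutamate receptors and the proteins that accompany them were followed in rat hippocampal cultures with and without a block of inhibition. The members were chosen by gene symbol. No measured value entered the rule, though earlier results of these data were known when it was set. The members are every probe set named with a single symbol of the AMPA, kainate, NMDA, delta and metabotropic receptor families, of the Cacng, cornichon and Neto auxiliary proteins, or of the trafficking partners Grip1, Grip2, Pick1 and Nsf. A probe set is a group of short probes read together as 1 transcript. In all, 38 genes were measured by 59 probe sets of the 31099 on the array. A gene with several probe sets is represented by the brightest of them, the one with the highest mean over all arrays.

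Glutamate is the main excitatory transmitter of the hippocampus. AMPA, kainate and NMDA receptors are ion channels built of subunits, and AMPA receptors carry most of the fast current while NMDA receptors let calcium enter when glutamate and depolarization coincide. Metabotropic receptors act through G proteins, with group I mainly exciting the postsynaptic cell and groups II and III mainly reducing transmitter release. Auxiliary proteins and trafficking partners set how many channels sit at the synapse and how they open and close, and these proteins are well known from studies of synaptic plasticity and of homeostatic scaling.

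The cultures were organotypic slices, in which hippocampal tissue of Wistar pups (postnatal day 4 in the labels, with a slightly wider span in the methods) is kept alive with its local circuits. Within each replica the cultures of littermates were divided between an untreated control and gabazine treatment (GabT, 20 µM for 90 min). Gabazine is an antagonist of the GABA-A receptor, the channel of most fast inhibition. Total RNA of 3 control and 3 GabT samples was hybridised to 6 Affymetrix RAT2302 arrays, and each GabT array was compared with the control of the same replica, which gives 3 pairs. The arrays hold mixed tissue, so fewer cells of a type and less RNA per cell cannot be told apart. The values are log2 intensities, and a log2 ratio is the GabT value minus the control value of a pair.

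No member passed the test. With limma paired by replica and adjusted over all probe sets, 0 of 59 member probe sets had an adjusted p under 0.05, where the background was 0% of all probe sets. At an unadjusted p under 0.05 there were also 0 of 59, against 4.52% of all probe sets. The lowest unadjusted p of a member in this limma fit was 0.0722, for Grin2c, and the lowest adjusted p was 0.747. For scale, Arc, an immediate early gene whose protein drives AMPA receptor internalisation, stood 2.58, 2.06 and 3.71 above its controls on the log2 scale. Its 3 GabT arrays lay above all 3 controls, and its adjusted p from limma was also 0.747, so a missed threshold in this design does not show that a gene was unaltered.

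Most mean ratios of the members were small. The mean log2 ratio of the 38 genes had a median of 0.04, against -0.0050 over all 14218 genes with 1 symbol, and it lay between -0.21 (Grin3a) and 0.47 (Grin2b). For 31 of the 38 it was within 0.2 of 0, a count that was not taken over all genes. Without the dimmest 40% of the table, 21 genes were left, with a median of 0.14. The 95% interval of the mean, taken from the moderated standard error of limma, stayed inside a 2-fold difference in both directions for 45 of 59 member probe sets (76.3%), against 89.3% of all probe sets. On the brightest probe sets it did so for 31 of 38 genes, with no such count over all genes. The genes whose interval reached 2-fold were Gria3, Grin2a, Grin2b, Grm3, Grm7, Neto1 and Neto2, and for these a 2-fold difference in at least 1 direction was within the error.

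**Figure D1:**
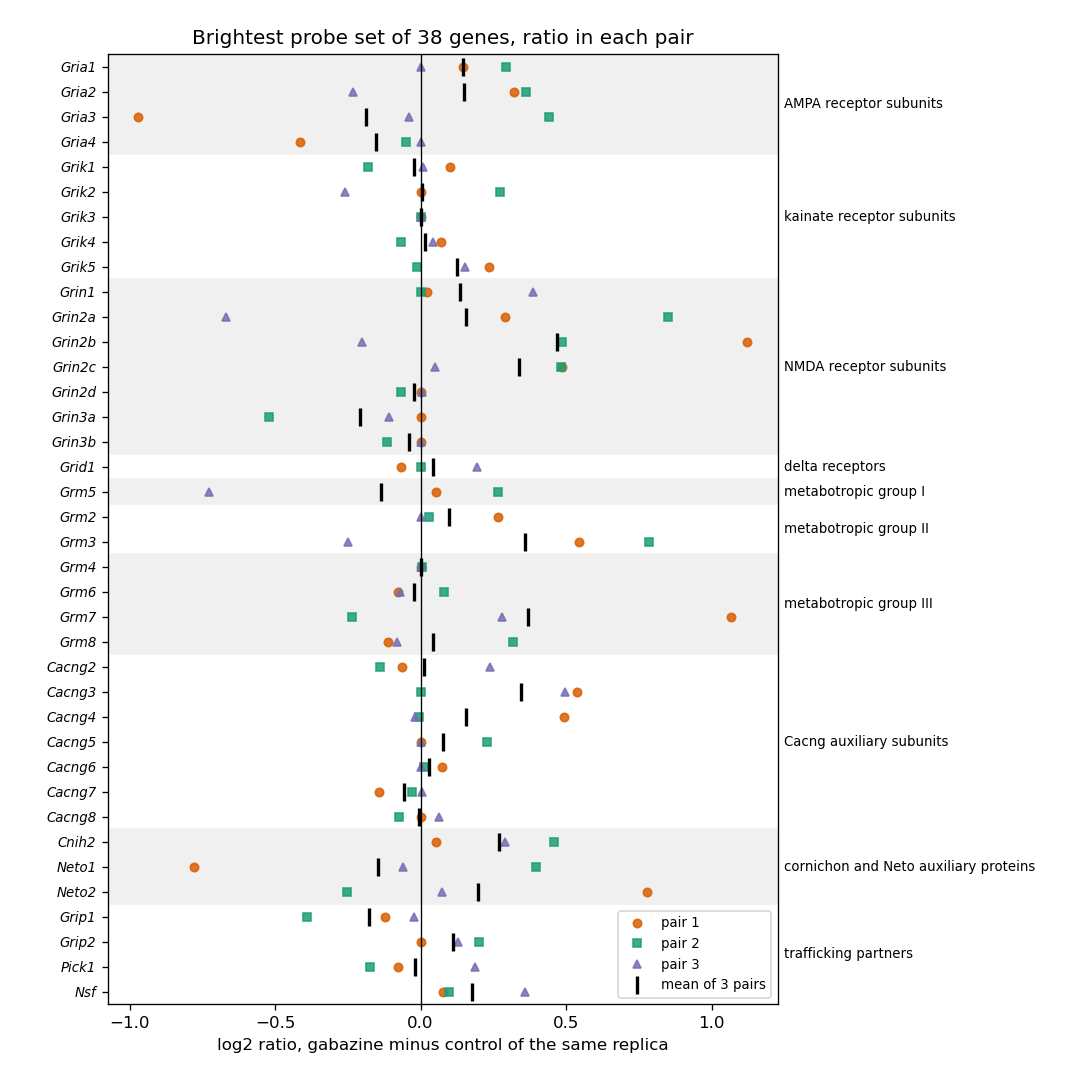
Log2 ratio of GabT over the control of the same replica (horizontal axis) for the brightest probe set of 38 glutamate receptor and auxiliary genes, in rows by family; circles, squares and triangles are pairs 1, 2 and 3, and the black bar is their mean. The means lie between -0.21 and 0.47, and the points of 22 genes fall on both sides of 0.

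Direction was seldom shared by the pairs. On the brightest probe set, 3 of 38 genes were above their control in all 3 pairs, namely Grin2c, Cnih2 and Nsf. This is 7.89% of the members, where the background was 7.79% of all genes. Grip1 alone was below its control in all 3 pairs, 2.63% of the members against a background of 10.8%. In 22 genes the ratios fell on both sides of 0, and 16 genes held exactly the same value on both arrays of at least 1 pair. The share of higher genes is near that of the table, and the share of lower genes is under it. After cyclic loess scaling of the arrays the counts were 8 higher (21.1%, against 17.3% of all genes) and 3 lower (7.89%, against 13.2%).

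Grin2c encodes an NMDA receptor subunit best known from cerebellar granule cells. Its log2 intensity was 10.38, 9.61 and 10.32 on control arrays 1, 2 and 3 and 10.87, 10.10 and 10.37 on the GabT arrays. GabT was higher in each pair, by nearly the same amount in pairs 1 and 2 and by little in pair 3, and the ranges of both groups overlapped. The mean log2 ratio was 0.34 (SE 0.12, 95% interval -0.06 to 0.74, n = 3 pairs). It corresponds to a ratio of 1.27 on the linear scale.

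Cnih2 encodes a cornichon protein that assembles with AMPA receptors and slows their closing. It read 13.42, 11.98 and 12.32 in the controls and 13.47, 12.44 and 12.61 after GabT. All pairs were higher, least in pair 1, while the level itself differed more between replicas than within a pair. The mean log2 ratio was 0.27 (SE 0.10, 95% interval -0.06 to 0.59).

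Nsf encodes the ATPase that takes apart SNARE complexes after vesicle fusion and that also binds the Gria2 subunit. Its brightest probe set read 13.53, 12.48 and 13.07 in the controls and 13.60, 12.58 and 13.43 after GabT. The step was small in pairs 1 and 2 and largest in pair 3, with overlapping groups. The mean log2 ratio was 0.18 (SE 0.08, 95% interval -0.08 to 0.44). The other Nsf probe sets had ratios of 2.33 and 1.27 in pair 1, where this one had 0.08. In pair 2 they had -0.22 and 0.10, so the first of them was not higher in all pairs. Its interval was -1.31 to 2.88.

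Grip1 encodes a PDZ scaffold that binds the tails of Gria2 and Gria3. It read 7.65, 7.22 and 7.80 in the controls and 7.53, 6.83 and 7.78 after GabT. The value was lower in each pair, chiefly in pair 2, and barely so in pair 3. The mean log2 ratio was -0.18 (SE 0.10, 95% interval -0.48 to 0.13). This probe set lies among the dimmest 40% of the table, and the second Grip1 probe set had ratios of 0.36, -0.24 and 0 in pairs 1, 2 and 3.

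**Figure D2:**
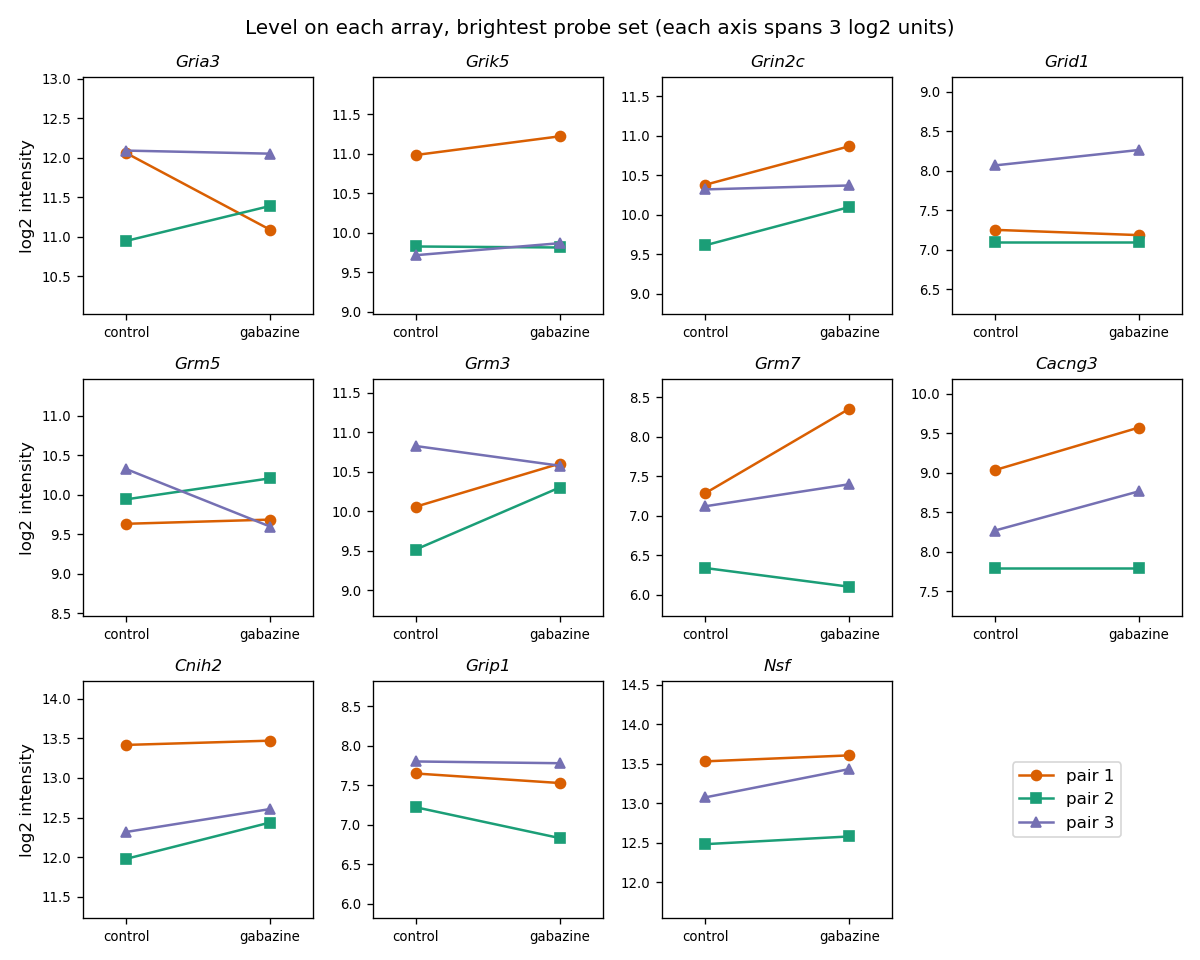
Log2 intensity (vertical axis, each panel spanning 3 log2 units) on the control and GabT array of each replica for 11 genes, with at least 1 from each family; a line joins the arrays of 1 pair. Lines of Grin2c, Cnih2 and Nsf all point up and those of Grip1 all point down, and most panels show wider gaps between replicas than within a pair.

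The bases upstream of the transcription start are shown for these 4 genes, as they are the members with 1 direction in all pairs. RefSeq (GRCr8) gave a promoter for 26 of the 38 genes. The 120 bases before the start are printed 5′ to 3′ along the gene, with capitals for GGGCGG, the GC box, on either strand. They lie at chr10:101005139-101005258 (minus strand) for Grin2c, chr1:211834438-211834557 (minus) for Cnih2, chr10:89357384-89357503 (minus) for Nsf and chr7:57197732-57197851 (plus) for Grip1.
Grin2c: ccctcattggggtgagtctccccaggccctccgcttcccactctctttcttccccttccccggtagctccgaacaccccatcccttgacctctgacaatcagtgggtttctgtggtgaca
Cnih2: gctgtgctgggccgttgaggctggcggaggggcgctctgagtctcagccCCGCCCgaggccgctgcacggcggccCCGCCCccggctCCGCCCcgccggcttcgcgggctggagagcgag
Nsf: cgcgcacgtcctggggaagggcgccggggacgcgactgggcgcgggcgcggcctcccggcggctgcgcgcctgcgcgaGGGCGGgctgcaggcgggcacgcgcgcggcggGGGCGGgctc
Grip1: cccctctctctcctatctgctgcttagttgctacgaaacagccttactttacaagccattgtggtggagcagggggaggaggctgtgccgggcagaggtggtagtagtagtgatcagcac
The stretches of Cnih2 and Nsf hold 3 and 2 GC boxes, and those of Grin2c and Grip1 hold none. Within 250 bases upstream, GGGCGG was found on either strand in 9 of 26 member promoters (34.6%) and in 32.4% of all 27457 promoters. The full cAMP response element TGACGTCA, a site bound by CREB, was in 0 of 26 members and in 1.7% of all promoters, and the CArG box, a site bound by SRF, was in 0 of 26 and 1.5%. The core TGACG of the cAMP response element, which also lies inside TGACGTCA, was in 2 of 26 (7.69%), those of Grin1 and Grik2, against 19% of all. In Grin1, whose subunit is obligatory in NMDA receptors, 1 of its 2 copies falls in the stretch at chr3:28528755-28528874 (minus), where capitals mark it on the opposite strand.
Grin1: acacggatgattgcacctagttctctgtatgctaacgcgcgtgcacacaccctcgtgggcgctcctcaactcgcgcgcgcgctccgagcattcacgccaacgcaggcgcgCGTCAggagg
Such a match describes the letters of a window and is not evidence of binding.

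AMPA receptor subunits gave no common direction. The medians of the 4 genes were -0.13, 0.33 and -0.02 in the 3 pairs, in order of replica. Of their 8 probe sets, 4 were above the control in pair 1, 6 in pair 2 and 0 in pair 3, where 5 were below it. Gria3 had the largest mean ratio in size of the family. It read 12.06, 10.95 and 12.09 in the controls and 11.09, 11.39 and 12.05 after GabT. It was nearly 2-fold lower in pair 1, higher in pair 2 and level in pair 3, for a mean of -0.19 (SE 0.34, 95% interval -1.30 to 0.92). Without pair 1 the mean turned to 0.20.

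The other AMPA subunits stayed closer to 0. Gria1, the subunit added to synapses in long-term potentiation, had a mean log2 ratio of 0.15 and ratios from 0 to 0.30. Gria2, which makes the channel impermeable to calcium, had a mean of 0.15 with ratios from -0.23 to 0.36. Its second probe set, nearly as bright, had a mean of -0.10 with ratios of -0.43, 0.29 and -0.16 in pairs 1, 2 and 3. Gria4, prominent early in development and in interneurons, had a mean of -0.15 with ratios from -0.41 to 0. The 95% intervals were -0.10 to 0.39 for Gria1, -0.37 to 0.67 for Gria2 and -0.51 to 0.21 for Gria4, so on these brightest probe sets a 2-fold difference lay outside the error. A dimmer Gria4 probe set had an interval of -1.31 to 0.66, which reaches 2-fold lower.

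Kainate receptor subunits had the smallest ratios of the channel families with several genes, with means between -0.02 and 0.13. Grik5, a high-affinity subunit that needs Grik1 to Grik3 to form a channel, had the largest. It read 10.98, 9.83 and 9.72 in the controls and 11.22, 9.81 and 9.87 after GabT. It was higher in pairs 1 and 3 and level in pair 2, for a mean of 0.13 (SE 0.07, 95% interval -0.09 to 0.34). Grik4, the other high-affinity subunit, had a mean of 0.01 and ratios from -0.07 to 0.07.

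Of the kainate subunits that form channels alone, Grik1 had a mean log2 ratio of -0.02 with ratios from -0.18 to 0.10. Grik2, the main kainate subunit of hippocampal pyramidal cells, had a mean of 0.0045 with ratios from -0.26 to 0.27. Grik3 held identical values on both arrays of all 3 pairs, and its ratio was 0 throughout. Its interval of -0.09 to 0.09 comes from the moderated error and not from a spread of its own, and the cause of the identical values was not tested.

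NMDA receptor subunits had a median mean ratio of 0.14 over 7 genes, with a median of 0.02 in pair 1 and 0 in pairs 2 and 3. Of their 13 probe sets, 8, 4 and 6 were above the control in pairs 1, 2 and 3. Grin2b, the subunit that dominates in the young forebrain, had the highest mean among the brightest probe sets of the member genes, 0.47, with ratios of 1.12, 0.49 and -0.20. Its levels were 8.38, 7.69 and 7.91 in the controls and 9.50, 8.17 and 7.71 after GabT. Over 2-fold higher in pair 1 and lower in pair 3, it had an interval of -0.56 to 1.49. Its second probe set had a mean of 0.32.

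Grin1, the obligatory subunit, had a mean log2 ratio of 0.14 with ratios from 0 to 0.39. Its second probe set had a mean of 0.35, ratios from 0 to 0.86 and an interval of -0.34 to 1.05. Grin2a, which replaces Grin2b as synapses mature, had a mean of 0.16 with ratios of 0.29, 0.85 and -0.67 in pairs 1, 2 and 3. Its interval of -1.03 to 1.34 was the widest among the 38 genes. Grin2d had a mean of -0.02 with ratios from -0.07 to 0.0034. Grin3a, a subunit of juvenile brain that lowers calcium entry, had the lowest mean among the brightest probe sets of the member genes at -0.21, with ratios from -0.52 to 0. Grin3b had a mean of -0.04 with ratios from -0.12 to 0. Apart from Grin2c, no subunit of this family kept 1 sign in every pair.

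Grid1 encodes a delta receptor, which is built like the channels but acts at synapses through the secreted cerebellins. It read 7.25, 7.11 and 8.07 in the controls and 7.19, 7.11 and 8.26 after GabT. The pairs were slightly lower, tied and slightly higher, for a mean of 0.04 (SE 0.07, 95% interval -0.19 to 0.27). Without pair 3 it was -0.0333.

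Metabotropic receptors were split by pair. Grm5, a group I receptor, couples to Gq at the edge of the postsynaptic density. It read 9.63, 9.94 and 10.32 in the controls and 9.68, 10.21 and 9.60 after GabT. Only pair 3 was lower, by 0.73, and the mean was -0.14 (SE 0.25, 95% interval -0.95 to 0.67). Without pair 3 it was 0.16. The second, dimmer Grm5 probe set had ratios of 0.59, -0.07 and -0.21 in pairs 1, 2 and 3 and a mean of 0.10.

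In group II, Grm3, which is found on astrocytes as well as on neurons, read 10.06, 9.51 and 10.82 in the controls and 10.60, 10.30 and 10.57 after GabT. The GabT arrays were close to one another while the controls were not, with higher values in pairs 1 and 2 and a lower one in pair 3. The mean was 0.36 (SE 0.26, 95% interval -0.48 to 1.20). Grm2, the presynaptic group II receptor of mossy fibres, had a mean of 0.10 with ratios from 0 to 0.26.

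In group III, Grm7, a low-affinity receptor of the presynaptic active zone, read 7.29, 6.34 and 7.12 in the controls and 8.36, 6.10 and 7.40 after GabT. It was over 2-fold higher in pair 1, lower in pair 2 and higher in pair 3, for a mean of 0.37 (SE 0.31, 95% interval -0.65 to 1.38). The presynaptic receptors Grm4 and Grm8 had means of 0.0022 and 0.04, with ratios from 0 to 0.0036 and from -0.11 to 0.32. Grm6, known chiefly from retinal bipolar cells, had a mean of -0.02 with ratios from -0.08 to 0.08.

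The Cacng proteins include the transmembrane AMPA receptor regulatory proteins, which bring the channels to the surface and tether them at the postsynaptic density. The median over 7 genes was 0.03, and 0 of the 7 kept 1 sign in all pairs. Cacng3, abundant in forebrain, had the largest mean. It read 9.04, 7.80 and 8.27 in the controls and 9.57, 7.80 and 8.77 after GabT. It was higher by about the same step in pairs 1 and 3 and held the same value on both arrays of pair 2, for a mean of 0.34 (SE 0.15, 95% interval -0.13 to 0.81).

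Cacng2, or stargazin, had a mean log2 ratio of 0.01 with ratios from -0.14 to 0.24. Cacng8, the abundant regulatory protein of the hippocampus, had a mean of -0.0044 with ratios from -0.08 to 0.06. Its interval was -0.15 to 0.14. The only Cacng8 probe set lies among the dimmest 40% of the table, with a mean log2 intensity of 6.17 in the controls. It held the same value on both arrays of pair 1. Whether this transcript was detected is not known, so the narrow interval does not show that it was unaltered. Cacng4 had a mean of 0.16 that came from pair 1, with ratios from -0.02 to 0.49. Cacng5 and Cacng7 are regulatory proteins of a second type. Their means were 0.08 and -0.06, with ratios from 0 to 0.23 and from -0.14 to 0.0045. Cacng6, a calcium channel subunit by name that is not counted among the AMPA receptor regulators, had a mean of 0.03 with ratios from 0 to 0.07.

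On their brightest probe sets Neto1 and Neto2, auxiliary subunits of kainate receptors, had ratios on both sides of 0. Neto1 had a mean of -0.15 with ratios of -0.78, 0.40 and -0.06 in pairs 1, 2 and 3. Neto2 had a mean of 0.20 with ratios of 0.78, -0.25 and 0.07. Its second probe set had a mean of 0.39 with ratios of 0.74, 0.43 and 0. Among the trafficking partners, Grip2 had a mean of 0.11 with ratios from 0 to 0.20. Pick1, which binds Gria2 and takes part in its internalisation, had a mean of -0.02 with ratios from -0.17 to 0.19.

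**Figure D3:**
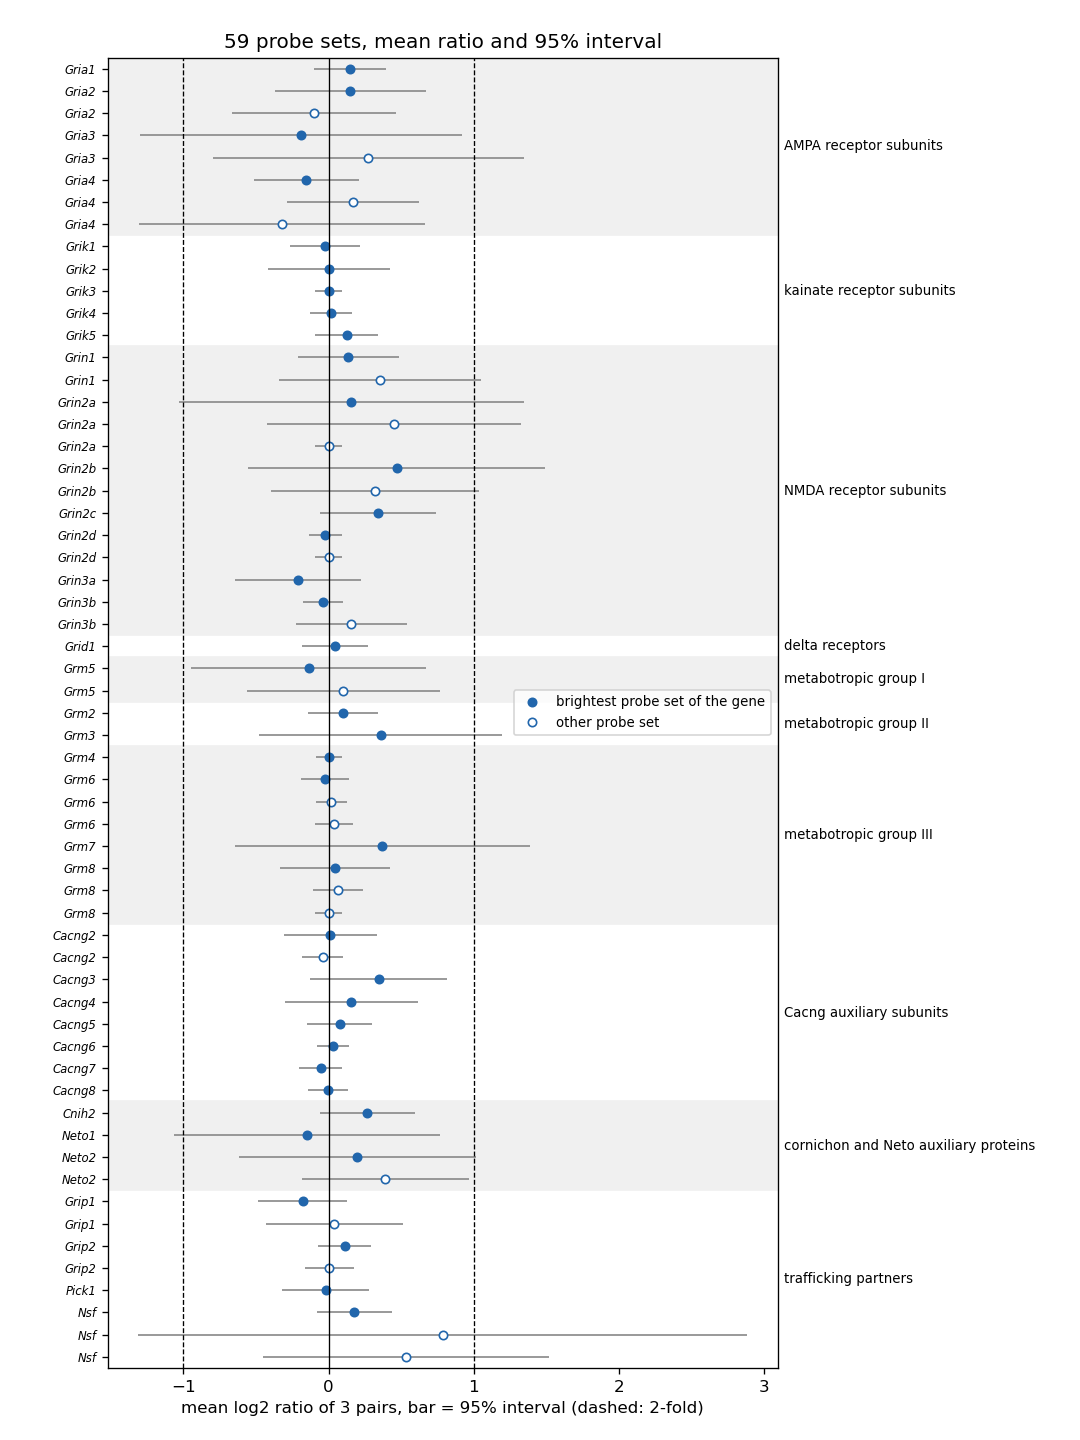
Mean log2 ratio of the 3 pairs (horizontal axis) with its 95% interval from the moderated error for all 59 member probe sets, in rows by family; filled points are the brightest probe set of a gene, open points the others, and dashed lines mark 2-fold. Every interval includes 0, and those of 45 probe sets stay between the dashed lines.

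The probe sets of 1 gene read different stretches of its transcripts, and they often disagreed. For 8 of 16 genes with more than 1 probe set, the mean ratios of the probe sets lay on both sides of 0. The gap between the highest and lowest ratio of a gene was 0.35, 0.31 and 0.15 at the median, in order of replica. The widest was that of Nsf in pair 1, at 2.26, where the brightest probe set had a ratio of 0.08 and the others 2.33 and 1.27. In pairs 2 and 3 the same Nsf probe sets differed by 0.32 and 0.12. Gria3 followed with a gap of 1.90 in pair 1, since its second probe set was 0.93 above the control and the brightest 0.97 below it. Gria4 and Grin2a had gaps of 1.38 and 1.08 in that pair.

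**Figure D4:**
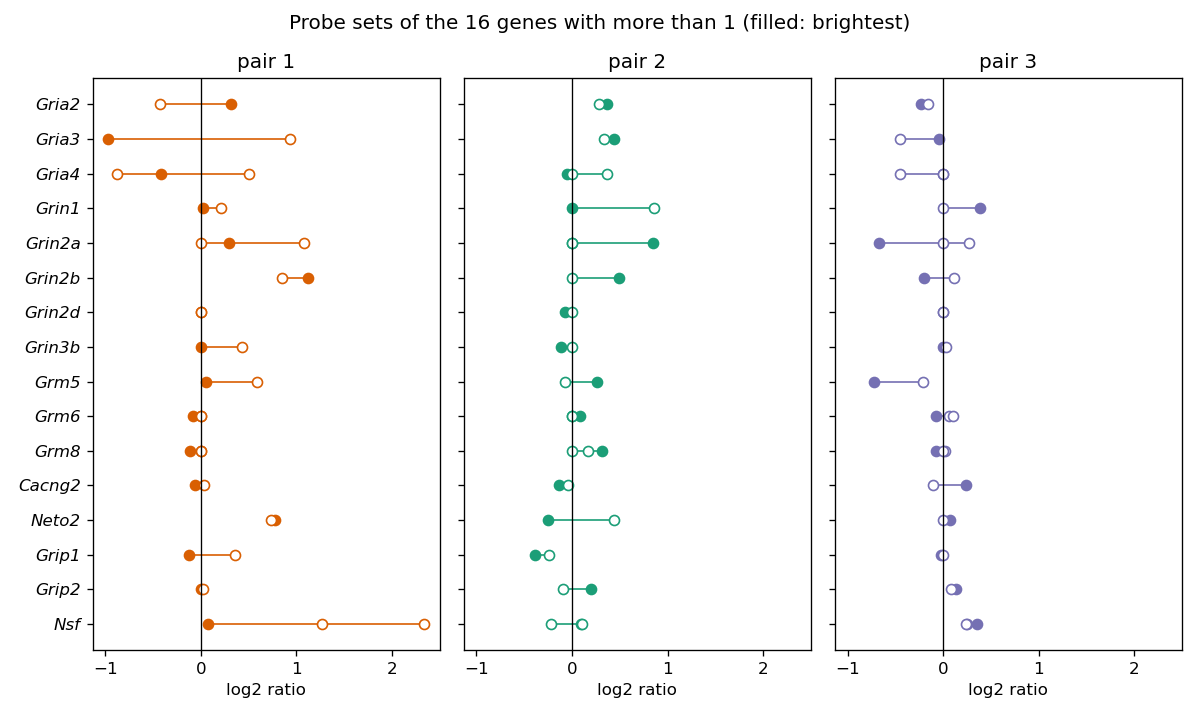
Log2 ratio of GabT over control (horizontal axis) in pairs 1, 2 and 3 (panels, left to right) for every probe set of the 16 genes with more than 1; filled points are the brightest probe set, and a line spans those of a gene. The lines of Nsf, Gria3 and Gria4 are longest in pair 1, with spans of 2.26, 1.90 and 1.38.

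Pair 1 also held every large single ratio. Over 2-fold higher there were 5 of 59 member probe sets (8.47%), against 4.07% of all probe sets, and in pairs 2 and 3 there were 0. Besides both Nsf probe sets they were those of Grin2b (1.12) and Grm7 (1.07) and a dim one of Grin2a (1.08). No member probe set was over 2-fold lower in any pair. The SD of the ratios over the 38 genes was 0.396, 0.296 and 0.238 in pairs 1, 2 and 3, and over all genes 0.367, 0.228 and 0.229. Between the pairs the ratios of the 38 genes correlated at 0.03 (pairs 1 and 2), 0.03 (1 and 3) and -0.45 (2 and 3), and those of all genes at 0.05, 0.38 and 0.06, as Pearson coefficients across genes that share arrays and are not independent replicates.

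Some transcripts outside the family also had large ratios in pair 1. In pair 1 the array's 5′ control probe set of beta-actin had a log2 ratio 1.70 above that of its 3′ probe set, against -0.25 and 0.10 in pairs 2 and 3. For GAPDH the 5′ excess was 0.50, 0.04 and -0.08, and for hexokinase 0.38, -0.02 and -0.12. Both hexokinase probe sets were higher in pair 1, with log2 ratios of 2.10 (5′) and 1.72 (3′). In pair 2 they were at -0.30 and -0.27, and in pair 3 at 0 and 0.12. Ttr, a choroid plexus marker, had a log2 ratio of 4.59 in pair 1 and of 0.14 and 0.07 in the others. The other choroid plexus markers in pair 1 were Folr1 at 0.59, Kcnj13 at 0.16, Otx2 at 0.15 and Kl at 0, and the list's median there was 0.16. Of 5 choroid plexus markers measured, 3 lie in the dimmest 40%, and their median level ranged over 6.70 to 7.49 in controls and 6.67 to 7.57 after GabT. The part of RNA integrity or of choroid plexus in the ratios of Nsf, Gria3, Grin2b and Grm7 was not tested.

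In pair 2 the excitatory neuron markers stood higher after GabT, with a median log2 ratio of 0.53 over 5 markers, against -0.01 and 0.13 in pairs 1 and 3. The AMPA subunits had their highest median in the same pair, 0.33. Medians there were 0.41 for group II metabotropic, 0.40 for cornichon and Neto and 0.27 for group I metabotropic genes. Those of the group III, NMDA, kainate, Cacng, trafficking and delta genes were 0.04, 0, -0.01, -0.0038, -0.04 and 0. The median of all 38 genes was 0.0018. The interneuron markers had a median of -0.18 in pair 2. The median level of the markers ranged over 10.30 to 12.09 in controls and 10.61 to 11.55 after GabT, and 1 of the 5, Tbr1, lies in the dimmest 40%. Their part in the ratios of pair 2 was not tested. Of the 6 interneuron markers 1 lies in the dimmest 40%, and of the 6 astrocyte markers 0 do. No marker of any of the 8 cell type lists passed the adjusted threshold. At an unadjusted p under 0.05 in limma there were 2 oligodendrocyte markers, Mog and Mbp, and 1 marker of meninges and fibroblasts. Of 4 oligodendrocyte markers 3 were above their control in all pairs, and the list's median was 0.34, 0.33 and 0.09 by replica. Their part in the ratios of the members was not tested.

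The baseline of the family was read from the controls. Control array 2 gave the lowest of the 3 control values for 33 of 38 genes (86.8%), as it did for 91.6% of all genes, and it has the lowest array median of the controls, 7.90 against 8.63 and 8.71. After each array was centred on its median this held for 8 genes, and for 31.7% of all genes. The SD over the 3 centred controls then ran from 0.05 (Grik1) to 0.70 (Neto1) with a median of 0.32, against 0.29 over all genes, and it was under 0.3 for 17 genes. The brightest probe set of 17 of the 38 genes lies in the dimmest 40% of the table, as do 29 of the 59 probe sets. No measure of background was used here, so whether these transcripts were detected is not known.

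Identical values within a pair limited the count of directions. Of the member probe sets, 29 (49.2%) had the same value on both arrays of at least 1 pair, against 47.4% of all probe sets. In pairs 1, 2 and 3 this concerned 25.4%, 22% and 23.7% of the members and 16.1%, 24.1% and 25.7% of the table. Tied in all 3 pairs were 4 probe sets, those of Grik3 and the dimmer ones of Grin2a, Grin2d and Grm8.

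The methods of the study assign p-values from the joint distribution of the ratios. That was approximated here as the share of probe sets with a ratio at least as extreme in all 3 pairs. The paper matches its cut of 0.005 roughly to an up-regulation above 2. Here 1687 of all probe sets were listed as higher at 0.005 or less. The highest mean of a member was 1.725-fold, for a dimmer Nsf probe set, so the lists given here are not the paper's. At a share of 0.005 or less, 13 of 59 member probe sets of 11 genes were listed as higher (22.0%), against 5.42% of all probe sets. Of these 13, 3 had the same sign in all pairs, the Grin2c and Cnih2 probe sets and a dimmer one of Nsf. The brightest Nsf probe set was not listed. How many of all listed probe sets had the same sign in all pairs was not counted. The other 10 were high in 1 or 2 pairs and tied or lower in another, among them Grin2b, Grm3, Grm7 and Cacng3. Listed as lower were 3 (5.08%), those of Grin3a, Grm5 and a dimmer one of Gria4, against 7.28% of all, and 0 of these 3 had the same sign throughout. This share is a rank in the table and not a p under no effect.

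Genes that act beside the receptors were read from lists of the pathway. Of 11 listed genes of glutamate transport and metabolism 8 were measured, 0 passed the adjusted threshold, 1 was higher in all pairs and 0 were lower. Their median log2 ratio was 0.06, from Slc1a1, the neuronal glutamate transporter, at -0.02 to Slc17a7, the vesicular transporter of excitatory terminals, at 0.35. Of 22 genes on a list of scaffolds and kinases of the postsynaptic density, 20 were measured. The list also holds the neuronal pentraxin genes Nptx1 and Nptxr and the AMPA receptor auxiliary genes Frrs1l, Gsg1l and Shisa9. Its values are therefore not those of scaffolds and kinases alone. Of the 20 genes, 0 passed the threshold and 1 went in each direction in all pairs, where the shares over all genes were 7.79% higher and 10.8% lower. Their median was 0.03, from Akap5, an anchor of kinases at the synapse, at -0.53 to Camk2a, the kinase of long-term potentiation, at 0.23. The ratios of both ends were uneven, with Akap5 at -1.35, 0.05 and -0.29 and Camk2a at -0.40, 1.26 and -0.17 in pairs 1, 2 and 3.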

How the data were processed

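The data are 6 Affymetrix RAT2302 arrays, 3 of control and 3 of gabazine-treated RNA, and this number limits the precision. The deposited values are log2 intensities that the authors made with RMA (background correction, normalization and summary per probe set) according to the methods and to the submitters' processing notes. In the sources used here, neither its version nor whether all arrays were normalized together is given. The labels gave the conditions and replica numbers, and 0 columns of values were left out. The annotation gives 1 symbol for 20832 probe sets, several for 436 (0 of which include a member) and none for 9831.

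Ratios were taken within each replica, as in the methods, and the series' design text states that a replica's cultures came from littermates. After the group means were subtracted, the arrays of a pair correlated at 0.794, 0.664 and 0.853. All 31099 probe sets were fitted with limma 3.58.1 (R 4.3.3) with the replica as a block, leaving 2 residual and 0.928 prior degrees of freedom, then eBayes and Benjamini-Hochberg at 0.05. The script was tested on simulated data. The members and lists were chosen with earlier results of these data known. In each family, all array values are given for the genes highest and lowest among those with 1 sign in all pairs, or else for the gene with the largest mean ratio in size. Other genes are given by mean and range. Grin2b, Grin2a, Neto1, Neto2 and Arc were given pair by pair after their values were seen. Motifs were searched in RefSeq promoter sequences. As alternatives the pairing was dropped, single pairs were left out, and the arrays were rescaled in 3 ways. Others were no dim probe sets, no tied probe sets, robust eBayes with a trend, the mean of a gene's probe sets and an approximation of the methods' joint distribution.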

Additional observations from a re-analysis of the deposited data

How the results depend on the processing

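No member passed the adjusted threshold in the fits of single probe sets that were run with limma, with each pair left out, other scalings, the dimmest 40% or tied probe sets left out, or robust eBayes. The fit with no replicate block also called 0, and as the pairing leaves the ratios as they are, the median log2 ratio of 0.0354 and the counts of 3 higher and 1 lower gene were its values too. At an unadjusted p under 0.05, 0 to 3 members were found, and the share of all probe sets was taken only in the main fit (4.52%). The methods' joint distribution listed 13 members as higher and 3 as lower.

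The median log2 ratio of the member genes was 0.0176 to 0.0647 with a pair left out, 0.0208 with median centring, 0.0271 with quantile normalization, 0.0491 with cyclic loess, 0.137 without the dimmest 40% (21 genes) and 0.0836 without tied probe sets (22 genes). Genes higher in all pairs numbered 5 to 11 with a pair left out, which asks for agreement of fewer pairs. Their shares were 13.2%, 26.3% and 28.9% without pairs 1, 2 and 3, against 17.2%, 21.4% and 11.7% of all genes. There were 5 with median centring (13.2%, against 12.7%) and 8 with cyclic loess (21.1%, against 17.3%). With a gene's probe sets averaged there were 5 (13.2%, against 10.1%). Genes lower in all pairs numbered 3 to 5 with a pair left out. Without pairs 1, 2 and 3 these were 7.89%, 13.2% and 13.2%, against 14.4%, 21.5% and 25.1% of all genes. There were 2 with quantile normalization (5.26%, against 17.7%) and 3 with cyclic loess (7.89%, against 13.2%). Both without the dimmest 40% and with probe sets averaged there were 0, against 13.4% and 9.97% of all genes.

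Of Grin2b and the 11 genes chosen by the rule, 3 turned their sign under an alternative and none did under another scaling. Gria3 was 0.20 without pair 1 (-0.50 to 0.20 over the pairs left out) and 0.0425 as the mean of its probe sets. Grid1 was -0.0333 without pair 3 (-0.0333 to 0.0975) and Grm5 was 0.16 without pair 3 (-0.34 to 0.16). The cause was not tested. With 3 pairs, differences inside the intervals given cannot be told from the spread between replicas.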
